A study of Mus musculus with 16 samples.

Results

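The genes described here are 9 markers of oligodendrocyte precursor cells (OPCs), the dividing glial cells that give rise to myelinating oligodendrocytes. They are the receptors Pdgfra and Egfr, the surface proteins Cspg4 (NG2), Ptprz1, Lhfpl3 and Tmem100, and the secreted proteins C1ql1, Matn4 and Emid1. They were taken by symbol from a list and matched to Ensembl mouse identifiers. All 9 were found among the 55335 genes of the count files, and all 9 were among the 19764 genes that passed the filter on low counts.

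OPCs carry the receptor for platelet-derived growth factor, PDGFRA, which keeps them dividing and alive, and the proteoglycan NG2, which is used to identify them in tissue. As the cells leave the cycle and mature, these surface genes are turned down and myelin genes are turned on. Thyroid hormone (T3) drives that step through nuclear receptors that bind DNA as pairs with retinoid X receptors, and Rxrg encodes the gamma form of those partners.

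The 16 libraries formed 4 groups of 4, given by the labels as RXRgKO with T3, RXRgKO untreated, WT with T3 and WT untreated. All came from mouse OPCs derived from neural stem cells by way of oligospheres, in a strain of mixed C57BL6J/129svEmx background, on day 4 of monolayer culture, with T3 given for 24 h where stated. The design text describes RXRgKO as RXRg-/- and WT as RXRg+/+, with no word on the position or kind of the mutation. The labels do not state whether replicates were separate cultures or animals, and p-values then reflect nothing beyond the spread among these libraries, which may be technical. Libraries held 18262279 to 42588442 counts in genes.

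Counts of Rxrg, the targeted gene, ran opposite to the genotype labels. It was at 5.46, 4.89, 4.27 and 5.05 CPM (library-size normalised counts) in the RXRgKO T3 libraries and 0.885, 0.96, 0.597 and 0.371 CPM in the WT T3 libraries. Without T3 it was 4.83, 3.77, 4.6 and 3.79 CPM in the RXRgKO libraries and 1.79, 1.48, 1.14 and 1.65 CPM in the WT libraries. Every library labelled RXRgKO therefore lay above every library labelled WT, and directions are given below as between the RXRgKO-labelled and WT-labelled libraries.

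Within each group the libraries split into sets of near-alike libraries, with a chi-square per gene of 1.485 to 2.085 within sets and 4.792 to 7.635 between sets of a group. In the RXRgKO-labelled groups, replicates 1 and 2 with T3 and replicates 1 and 3 untreated had Xist, the RNA of the inactive X chromosome, at 1.39 to 3.75 CPM, against 275.9 to 1381.6 CPM in the other 12 libraries. They are called the Xist-lacking set, and the other RXRgKO-labelled libraries the set with Xist. WT-labelled replicate 1 stood apart from replicates 2 to 4 in both treatments. Sex-linked genes also differed between treatments within sets. The Y-linked gene Ddx3y was at 68.1 to 78.3 CPM with T3 and 13.9 to 15.8 CPM untreated in WT-labelled replicates 2 to 4, and at 20.7 and 22.1 CPM with T3 and 51.2 and 52.9 CPM untreated in the RXRgKO-labelled set with Xist. The part of these differences in the T3 results was not tested.

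The cells carried the defining factors of the oligodendrocyte lineage. Sox10 was at 228.6 to 488.3 CPM and 428 to 797.1 CPM in the RXRgKO-labelled and WT-labelled T3 libraries, and at 183.6 to 359.7 CPM and 344 to 824.2 CPM in those without T3. Other cell types were present too. The 10 astrocyte genes summed to 15873 CPM with T3 and 8915.7 CPM untreated in WT-labelled replicate 1. Replicates 2 to 4 held 5194 to 6211.8 CPM with T3 and 3585.6 to 3765.8 CPM untreated. In the Xist-lacking set they summed to 7512.6 to 8544.1 CPM with T3 and 5762.2 to 6103.5 CPM untreated, against 4742 to 4995 and 3197.5 to 3285.4 CPM in the set with Xist. No astrocyte gene was at 0 in any of these sets.

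Per length, the levels of the 9 markers differed widely. Their median levels over the 16 libraries, in CPM per kb of merged exons, were 77.8 for Lhfpl3, 72.3 for Ptprz1, 53.9 for Pdgfra, 34.7 for C1ql1, 19 for Matn4, 9.66 for Egfr, 8.08 for Tmem100, 4.11 for Cspg4 and 0.81 for Emid1. Lhfpl3 exceeded 97.7% of the tested genes and Emid1 32.6%. Neighbours in this order overlapped in their ranges over libraries, except Cspg4 (2.37 to 10.3 CPM per kb) and Emid1 (0.587 to 1.91). Emid1 rested on 39 to 175 counts a library and Tmem100 on 188 to 729, the lowest of the 9. Exons of Matn4 overlap those of Rbpjl on the other strand (137 to 631 counts), and exons of Lhfpl3 overlap those of the long non-coding RNA A930003O13Rik on the other strand (104 to 908 counts). The strand setting of the counting is not given in the sources used here, so reads in these overlaps cannot be assigned with certainty.

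**Figure D1:**
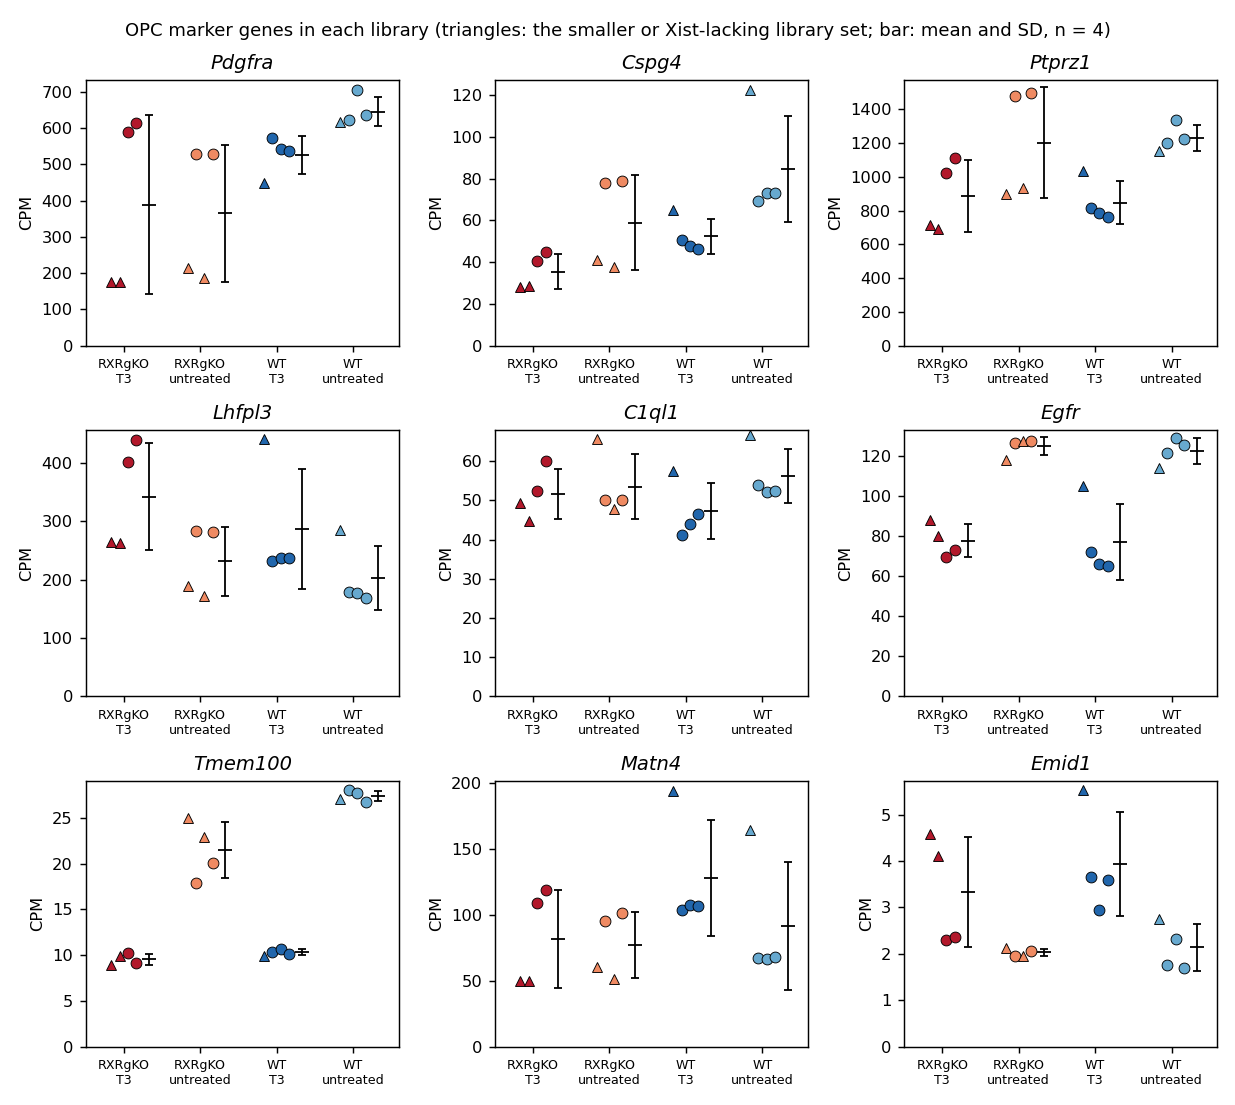
Normalised counts (CPM, y axis) of the 9 OPC marker genes in each of the 16 libraries by group. Triangles mark the Xist-lacking set and WT-labelled replicate 1, circles the other libraries, and bars the mean and SD of 4 libraries. Pdgfra lay at 174.6 to 215.6 CPM in the Xist-lacking set and at 449.5 CPM or above in every other library.

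Promoter windows of 3 genes are shown. Egfr, which fell with T3, and Emid1, which rose with T3 in the WT-labelled libraries, are shown for their T3 results, and Lhfpl3, which did not pass the T3 test, because its window was the 1 with a match to the receptor half-site. No window was used for Tmem100 or C1ql1. Each window runs from 250 bases before the gene's start to 50 after it, 5′ to 3′ on the gene's strand, from RefSeq on GRCm38.p6. The windows are Egfr at chr11:16751953-16752252 (plus strand), Emid1 at chr11:5152181-5152480 (minus strand) and Lhfpl3 at chr5:22745804-22746103 (plus strand).
Egfr: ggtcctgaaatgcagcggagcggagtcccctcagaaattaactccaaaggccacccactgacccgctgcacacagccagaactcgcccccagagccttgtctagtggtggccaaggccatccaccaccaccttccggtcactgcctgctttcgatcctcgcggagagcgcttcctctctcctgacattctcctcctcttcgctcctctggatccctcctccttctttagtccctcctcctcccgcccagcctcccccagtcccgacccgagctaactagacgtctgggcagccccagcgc
Emid1: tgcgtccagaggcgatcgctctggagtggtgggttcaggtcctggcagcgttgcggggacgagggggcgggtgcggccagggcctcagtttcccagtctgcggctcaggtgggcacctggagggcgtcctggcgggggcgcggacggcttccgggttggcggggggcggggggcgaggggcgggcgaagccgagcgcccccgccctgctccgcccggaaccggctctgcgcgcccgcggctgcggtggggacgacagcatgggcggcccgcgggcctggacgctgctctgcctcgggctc
Lhfpl3: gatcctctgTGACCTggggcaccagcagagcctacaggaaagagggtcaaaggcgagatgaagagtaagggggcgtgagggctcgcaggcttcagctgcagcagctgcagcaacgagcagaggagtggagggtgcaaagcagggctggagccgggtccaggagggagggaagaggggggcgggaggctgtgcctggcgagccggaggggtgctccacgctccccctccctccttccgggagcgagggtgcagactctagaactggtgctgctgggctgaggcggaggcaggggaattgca
The capitals mark the 1 match, on the minus strand 241 bases before the start, to AGGTCA, the half-site bound by thyroid hormone and retinoid receptors. Both strands of 9 windows from 7 of the 9 genes were searched for it and for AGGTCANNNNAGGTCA, the direct repeat of that half-site spaced by 4 bases, which contains the first motif. The Lhfpl3 window was the 1 window with a half-site, and 0 held the direct repeat. Among 32851 promoter windows of the same length, 16.3% held the half-site and 0.0152% the direct repeat.

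Tmem100 and Egfr fell with T3 under both genotype labels. Emid1 rose with T3 in the WT-labelled libraries. Of the 9 markers, 0 rose and 2 fell in the RXRgKO-labelled libraries, and 1 rose and 2 fell in the WT-labelled libraries (edgeR quasi-likelihood test, adjusted p under 0.05). Over all tested genes, 2.81% passed in the RXRgKO-labelled and 8.44% in the WT-labelled libraries. The median log2 fold change of the 9 was -0.05 and -0.30 under these labels, beside -0.00 and -0.03 over all tested genes. In bulk RNA, fewer cells of a type and less RNA per cell cannot be told apart.

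Tmem100, a membrane protein described as a target of BMP9 and ALK1 signalling in endothelial cells, had the largest change of the 9. It was at 8.98, 9.89, 10.2 and 9.18 CPM in RXRgKO-labelled T3 libraries, against 25, 17.9, 22.9 and 20.1 CPM in untreated ones. WT-labelled libraries had 9.96, 10.4, 10.7 and 10.1 CPM with T3, against 27.1, 28.1, 27.7 and 26.8 CPM untreated. All 8 T3 libraries lay below all 8 untreated libraries. Tmem100 (ENSMUSG00000069763; GRCm38 chromosome 11, 90030348 to 90036508) fell by 1.17 on the log2 scale under the RXRgKO label (SE 0.11, adjusted p = 1.2e-05) and by 1.42 under the WT label (SE 0.11, adjusted p = 8.7e-07). Within the library sets its log2 difference ranged between -0.97, in the RXRgKO-labelled set with Xist, and -1.44, in WT-labelled replicate 1.

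Egfr, the receptor for epidermal growth factor and transforming growth factor alpha, averaged 77.6 ± 8.22 CPM with T3 and 124.7 ± 4.44 CPM untreated under the RXRgKO label, and 76.9 ± 18.9 and 122.4 ± 6.5 CPM under the WT label (SD, n = 4 each). Its T3 libraries held 88, 79.9, 69.3 and 73.1 CPM under the RXRgKO label and 105, 71.9, 66.1 and 64.9 CPM under the WT label. The untreated libraries held 118.1, 126.2, 127.2 and 127.3 CPM and 113.8, 121.3, 129 and 125.4 CPM. The groups did not overlap under either label, and WT-labelled replicate 1 was the T3 library closest to the untreated ones. Egfr (ENSMUSG00000020122; GRCm38 chromosome 11, 16752203 to 16918158) fell by 0.68 on the log2 scale under the RXRgKO label (SE 0.14, adjusted p = 0.0139) and by 0.67 under the WT label (SE 0.14, adjusted p = 0.00699). The log2 difference within sets was -0.55 in the Xist-lacking set, -0.83 in the set with Xist, -0.12 in WT-labelled replicate 1 and -0.89 in replicates 2 to 4. Under the RXRgKO label the adjusted p was 0.0008 to 0.0573 when 1 library was left out, and it was above 0.05 without untreated replicate 4 or without T3 replicate 3 or 4. With no filter on low counts it was 0.101 there and 0.0692 under the WT label, and with only the Xist-lacking RXRgKO-labelled libraries it was 0.436 under the RXRgKO label.

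Emid1, a secreted protein with an EMI domain and a collagen-like stretch, was the least abundant marker. It was at 4.57, 4.11, 2.29 and 2.36 CPM with T3 and 2.12, 1.96, 1.96 and 2.06 CPM untreated in the RXRgKO-labelled libraries. The WT-labelled libraries held 5.53, 3.65, 2.94 and 3.59 CPM with T3, against 2.76, 1.77, 2.32 and 1.7 CPM untreated. No group overlapped its untreated counterpart, and the T3 libraries of the Xist-lacking set and WT-labelled replicate 1 were the highest. Emid1 (ENSMUSG00000034164; GRCm38 chromosome 11, 5106265 to 5152257) rose by 0.88 on the log2 scale under the WT label (SE 0.25, adjusted p = 0.0408), and its value under the RXRgKO label was 0.70 (SE 0.25, adjusted p = 0.172). The WT-labelled call was lost in 10 of 16 fits that left out 1 library (adjusted p 0.0208 to 0.134), and it held without WT-labelled untreated replicate 1, WT-labelled T3 replicate 3 or any of the 4 RXRgKO-labelled T3 libraries. It was also lost by limma voom (adjusted p = 0.0527) and with WT-labelled replicate 1 left out in both treatments (adjusted p = 0.0516).

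Cspg4 and Ptprz1 were lower with T3 in every library set, without passing the test over 4 libraries a group. Cspg4, the NG2 proteoglycan, was at 28.2, 28.4, 40.3 and 45 CPM with T3 and 40.8, 77.9, 37.6 and 78.9 CPM untreated in RXRgKO-labelled libraries. In WT-labelled ones it was at 64.9, 50.5, 47.7 and 46.3 CPM with T3 and 122.6, 69.4, 73.2 and 73.3 CPM untreated. The groups overlapped under the RXRgKO label and did not under the WT label, where replicate 1 was highest in both treatments. Its log2 fold change was -0.73 (SE 0.26, adjusted p = 0.168) under the RXRgKO label and -0.69 (SE 0.26, adjusted p = 0.12) under the WT label.

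Ptprz1, a receptor-type tyrosine phosphatase that binds pleiotrophin and contactin 1, was the marker with the most counts. It was at 717.5, 688.7, 1025.9 and 1110.3 CPM with T3 and 897.7, 1478.8, 935.9 and 1497.8 CPM untreated under the RXRgKO label. Under the WT label it was at 1033, 813.5, 784 and 759.6 CPM with T3 and 1154.3, 1199.4, 1334.8 and 1226.1 CPM untreated. Again the groups overlapped only under the RXRgKO label. The log2 fold change was -0.44 (SE 0.2, adjusted p = 0.298) and -0.54 (SE 0.2, adjusted p = 0.122) under the RXRgKO and WT labels.

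Pdgfra was the marker whose libraries differed most within a label. It was at 174.6, 175.1, 591 and 614.1 CPM with T3 and 215.6, 528.6, 188 and 528.4 CPM untreated in the RXRgKO-labelled libraries. In the WT-labelled libraries it was at 449.5, 572.7, 543.3 and 538.1 CPM with T3 and 617.9, 623.4, 705.8 and 635.7 CPM untreated. The WT-labelled T3 libraries all lay below the untreated ones, and the RXRgKO-labelled values split by library set and not by treatment. The T3 log2 fold change of Pdgfra (ENSMUSG00000029231; GRCm38 chromosome 5, 75152292 to 75198215) was 0.09 (SE 0.4, adjusted p = 0.934) under the RXRgKO label and -0.30 (SE 0.4, adjusted p = 0.722) under the WT label. Both library sets had a lower log2 level with T3 under the WT label, while under the RXRgKO label the value was -0.20 in the Xist-lacking set and 0.19 in the set with Xist.

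Lhfpl3 and Matn4 had positive log2 fold changes with T3 under both labels, without passing the test. Lhfpl3, a tetraspan membrane protein of the LHFPL family, was at 265.3, 262.7, 402.4 and 439.8 CPM with T3 and 189.3, 283.3, 172.3 and 281.8 CPM untreated under the RXRgKO label. Under the WT label it was at 441.8, 232.6, 237.1 and 237.2 CPM with T3 and 285.7, 179, 177.6 and 168.7 CPM untreated. Within every set the T3 libraries were above the untreated ones, by 0.43 to 0.63 on the log2 scale, while the whole groups overlapped. The fitted log2 fold change was 0.56 (SE 0.26, adjusted p = 0.305) under the RXRgKO label and 0.50 (SE 0.26, adjusted p = 0.28) under the WT label.

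Matn4, a matrilin of the extracellular matrix, was at 49.9, 49.5, 109 and 118.8 CPM with T3 and 60.7, 95.3, 51.1 and 101.7 CPM untreated under the RXRgKO label. The WT-labelled libraries held 194, 103.8, 107.2 and 107 CPM with T3 and 164.5, 67.1, 66.6 and 68.2 CPM untreated. Replicate 1 was well above the other WT-labelled libraries in both treatments, and the RXRgKO-labelled libraries again split by set. Its log2 fold change with T3 was 0.08 (SE 0.37, adjusted p = 0.932) under the RXRgKO label and 0.48 (SE 0.37, adjusted p = 0.484) under the WT label.

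C1ql1, a secreted C1q-domain protein, did not pass the test under either label. Under the RXRgKO label it was at 49.3, 44.8, 52.4 and 60.1 CPM with T3 and 65.8, 50.1, 47.9 and 50.2 CPM untreated, and under the WT label at 57.5, 41.3, 43.9 and 46.5 CPM with T3 and 66.6, 54, 52.1 and 52.5 CPM untreated. The groups overlapped under both labels. The log2 fold change was -0.05 (SE 0.14, adjusted p = 0.896) and -0.25 (SE 0.14, adjusted p = 0.331) under the RXRgKO and WT labels.

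**Figure D2:**
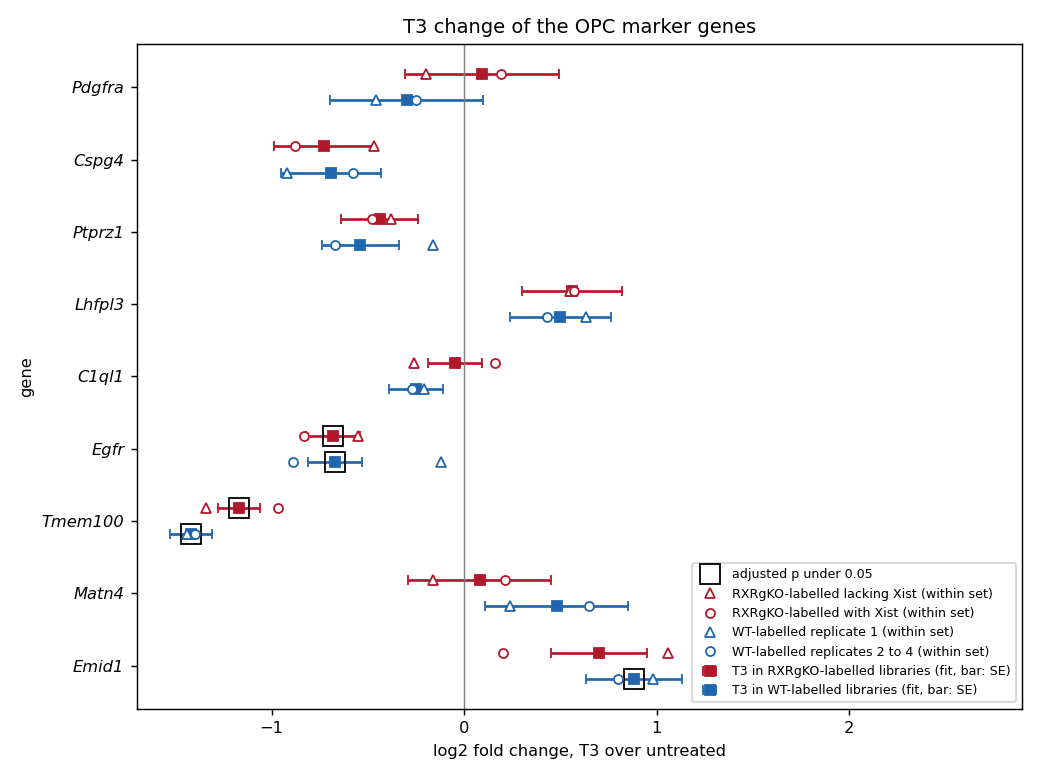
Log2 fold change with T3 over untreated (x axis) of the 9 markers (y axis). Filled squares are the fitted values with SE bars, open symbols the log2 differences within library sets, and boxes mark adjusted p under 0.05. Tmem100 and Egfr were called under both labels and Emid1 under the WT label.

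With library set as a term in the fit, the spread between sets no longer entered the error, and more markers passed. The sets were formed from these same counts, so the error left was the spread among near-alike libraries, which may be technical. The adjusted p-values of this fit measure that spread alone, and sex-linked RNA differed between treatments within sets, as given above. Under the RXRgKO label 6 of 9 passed, against 33.6% of all tested genes: Tmem100 (-1.15), Egfr (-0.69), Cspg4 (-0.69, SE 0.08, adjusted p = 5.9e-07) and Ptprz1 (-0.43, SE 0.08, adjusted p = 1.5e-04) fell, and Lhfpl3 (0.56, SE 0.06, adjusted p = 9.6e-08) and Emid1 (0.65, SE 0.17, adjusted p = 0.00494) rose. Pdgfra had -0.01 (adjusted p = 0.958), Matn4 0.03 (adjusted p = 0.809) and C1ql1 -0.05 (adjusted p = 0.706). Under the WT label all 9 passed, 3 higher and 6 lower, against 38.4% of all tested genes.

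The T3 tests reported first have no replicate block. In an alternative fit of the WT-labelled T3 comparison, on its 8 libraries, replicate numbers were taken as pairs and entered as a block. That alternative also called all 9 markers (26.7% of all tested genes). The pairing rests on residual correlations, and no label says that same-numbered libraries share a culture. Replicate 1 stood apart in both treatments, which by itself pushes the residuals of replicates 2 to 4 towards positive correlations. Replicates 2 to 4 also each correlated best with another number, so these correlations cannot show pairing. The calls with the block are therefore no support separate from those with the set term. In pairs 2 to 4, Xist was at 275.9 to 365.2 CPM with T3 and 1197.6 to 1381.6 CPM untreated, and Ddx3y also differed, as given above, so the T3 and untreated libraries of a number differed in sex-linked RNA. In the fit with the block Emid1 (0.88), Matn4 (0.56, SE 0.09, adjusted p = 7.6e-04) and Lhfpl3 (0.49, SE 0.08, adjusted p = 9.1e-04) rose. Tmem100 (-1.40), Egfr (-0.68), Cspg4 (-0.65, SE 0.08, adjusted p = 2.0e-04), Ptprz1 (-0.53, SE 0.11, adjusted p = 0.00431), Pdgfra (-0.29, SE 0.08, adjusted p = 0.028) and C1ql1 (-0.24, SE 0.08, adjusted p = 0.0359) fell. The fold changes differed little from those without the block, and the SE of Pdgfra was 0.08 with it and 0.40 without it. Counted by libraries that did not overlap, 3 of 9 markers separated T3 from untreated under the RXRgKO label and 6 of 9 under the WT label, beside 13.4% and 15.4% of all tested genes.

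The T3 response itself was not shown to differ between genotype labels for any marker. The difference of the T3 changes, RXRgKO label minus WT label, was called for 0 of 9 markers by edgeR, with 0 at an unadjusted p under 0.05, and for 0 by DESeq2 and 0 by limma voom. Of all tested genes, 0.0658% were called by edgeR. The values ranged between -0.40 for Matn4 (SE 0.52) and 0.39 for Pdgfra (SE 0.57), each smaller than its SE. With library set as a term, under the limit given above for that term, 1 of 9 markers passed, beside 6.68% of all tested genes. Matn4 had a difference of -0.52 (SE 0.11, adjusted p = 0.00601).

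Between the genotype labels without T3, Tmem100 was the 1 marker that passed. It averaged 21.5 ± 3.1 CPM in the RXRgKO-labelled and 27.4 ± 0.593 CPM in the WT-labelled untreated libraries (SD, n = 4 each), a log2 fold change of -0.35 (SE 0.11, adjusted p = 0.0449). The call was lost in 13 of 16 fits that left out 1 library (adjusted p 0.0232 to 0.141), and it held without replicate 1 of the RXRgKO-labelled untreated, RXRgKO-labelled T3 or WT-labelled T3 group. Of all tested genes 11.3% were called. In 2 of 9 markers, Tmem100 and Pdgfra, the untreated groups did not overlap, beside 18.7% of all tested genes. Pdgfra averaged 365.1 ± 188.9 CPM in RXRgKO-labelled and 645.7 ± 40.8 CPM in WT-labelled untreated libraries, and its log2 fold change of -0.82 (SE 0.4, adjusted p = 0.251) did not pass.

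With T3, 0 of 9 markers differed between the labels by edgeR, 1 at an unadjusted p under 0.05, and 0 by DESeq2 and limma voom, while 14.9% of all tested genes were called. The marker with the small unadjusted p was Cspg4, at 35.5 ± 8.48 CPM in RXRgKO-labelled and 52.3 ± 8.53 CPM in WT-labelled T3 libraries (SD, n = 4 each), a log2 fold change of -0.56 (SE 0.26, adjusted p = 0.181). It was also the 1 of 9 whose groups did not overlap, beside 18.1% of all tested genes. Egfr, Tmem100 and Ptprz1 had log2 values of 0.01 (SE 0.14), -0.10 (SE 0.11) and 0.06 (SE 0.2).

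Several markers differed between the RXRgKO-labelled library sets. Pdgfra in the Xist-lacking set was 0.29 times its level in the set with Xist with T3 and 0.382 times untreated, a larger log2 difference than in 96.7% and 96.4% of the tested genes. Matn4 had ratios of 0.436 with T3 and 0.567 untreated, Cspg4 0.664 and 0.5, Ptprz1 0.658 and 0.616, and Lhfpl3 0.627 and 0.64. These 5 of 9 markers were lower in the Xist-lacking set in both treatments without overlap, beside 31.3% of all tested genes. The log2 differences of the other 4 of them exceeded those of 62.0% (Cspg4) to 89.9% (Matn4) of the tested genes with T3 and of 77.3% (Lhfpl3) to 91.0% (Cspg4) untreated. Egfr (1.18 with T3 and 0.967 untreated) and Tmem100 (0.974 and 1.26) were not. Emid1 was at 1.86 times with T3 and 1.01 times untreated, and C1ql1 at 0.836 and 1.13 times. The RXRgKO-labelled groups with and without T3 each held 2 libraries of each set. Other lists moved with the set. The 16 other OPC-enriched genes summed to a mean of 1345.9 CPM in the Xist-lacking set and 2571.9 CPM in the set with Xist with T3, and to 1386.3 and 2348.9 CPM untreated. The 8 lineage transcription factors summed to 1285.8 and 2346.6 CPM with T3 and to 1438.6 and 2432.4 CPM untreated in these sets. Pericyte genes summed to 69.6 and 138.4 CPM with T3 and to 92 and 131.9 CPM untreated, and their part in the marker values was not tested. That sum rests largely on Notch3. In the RXRgKO-labelled T3 libraries Notch3 averaged 68.4 CPM (39.5 to 97.3) and Pdgfrb 16.1 CPM (7.82 to 24.6), beside a mean sum of 104 CPM. Rgs5 was at 9.96 to 13.5 CPM and Vtn at 5.21 to 6.04 CPM there.

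Set against the WT-labelled libraries, the RXRgKO-labelled sets therefore gave different calls. These fits were chosen after seeing the data and kept 2 near-alike RXRgKO-labelled libraries a group. The sets had already been seen to differ in these markers, so the adjusted p-values are descriptive and are no test of genotype. With the Xist-lacking libraries alone, Pdgfra was lower by 1.58 with T3 (log2 value -1.58, SE 0.15, adjusted p = 1.2e-05) and had -1.66 without T3 (SE 0.15, adjusted p = 1.1e-05). Cspg4 had -0.87 (SE 0.21, adjusted p = 0.00986) with T3 and -1.09 (SE 0.21, adjusted p = 0.00382) without T3, and Matn4 -1.35 (SE 0.37, adjusted p = 0.0189) with T3. Of all tested genes, 27.3% with T3 and 20.1% without T3 passed in these fits. With the libraries that had Xist alone, Pdgfra had 0.15 (SE 0.13, adjusted p = 0.519) with T3 and -0.30 (SE 0.14, adjusted p = 0.215) without T3. The calls there were Emid1 with T3 (-0.80, SE 0.25, adjusted p = 0.0476) and Tmem100 without T3 (-0.54, SE 0.11, adjusted p = 0.00594), beside 15.6% and 11.2% of all tested genes.

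**Figure D3:**
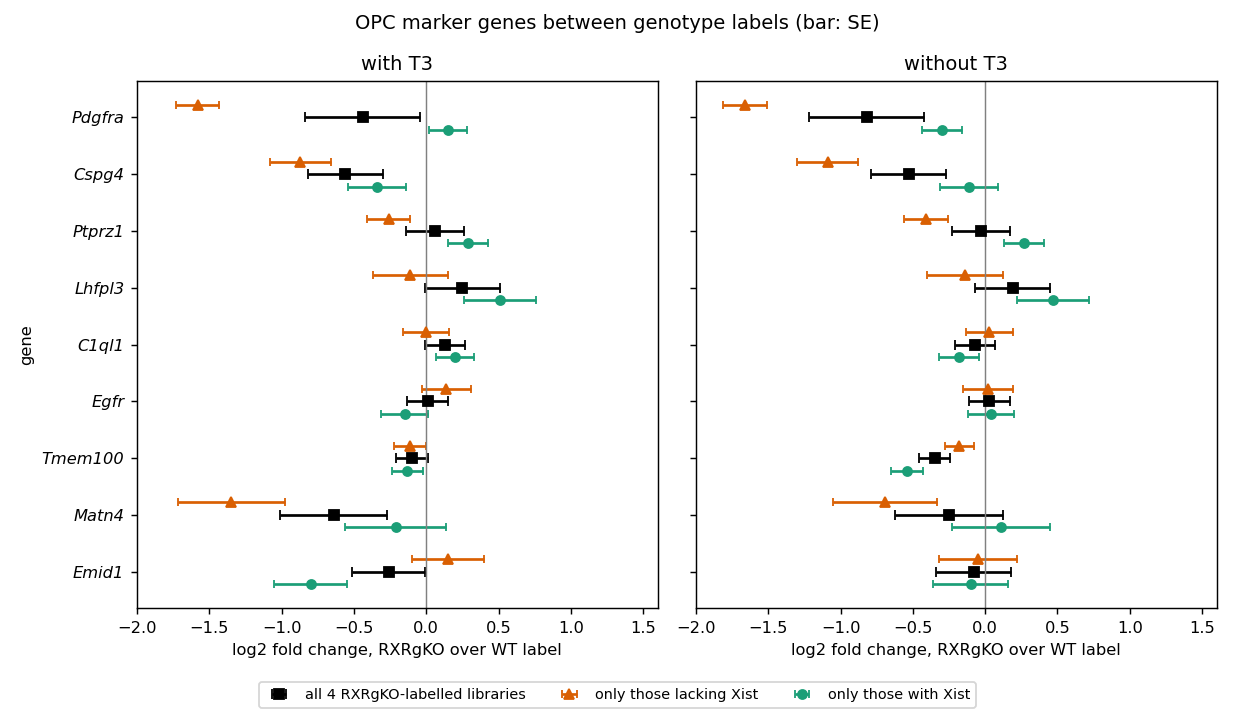
Log2 fold change between the RXRgKO and WT labels (x axis) of the 9 markers (y axis) with T3 (left) and without (right). Black squares use all 4 RXRgKO-labelled libraries of a group, triangles the Xist-lacking ones and circles those with Xist, with SE bars. Pdgfra lay at -1.58 and -1.66 with the Xist-lacking libraries and at 0.15 and -0.30 with the others.

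In the WT-labelled libraries, replicate 1 stood above replicates 2 to 4 in both treatments in Matn4, Lhfpl3, Cspg4, Emid1 and C1ql1. Its Matn4 level was 1.83 times theirs with T3 and 2.44 times untreated, Lhfpl3 1.87 and 1.63 times, and Cspg4 1.35 and 1.7 times. Emid1 was at 1.63 and 1.43 times and C1ql1 at 1.31 and 1.26 times. Pdgfra was at 0.815 and 0.943 times. Egfr was at 1.55 times with T3 and 0.909 times untreated. With T3, the log2 differences exceeded those of 81.0% (Matn4), 82.4% (Lhfpl3), 47.6% (Cspg4), 72.0% (Emid1) and 43.4% (C1ql1) of the tested genes. Untreated, the shares were 93.8%, 76.1%, 79.6%, 62.0% and 42.5%. Matn4, Lhfpl3 and Cspg4 also split the RXRgKO-labelled sets. The summed astrocyte genes of replicate 1, given above, were the highest of the 16 libraries with T3 and untreated, and their part in these ratios was not tested.

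**Figure D4:**
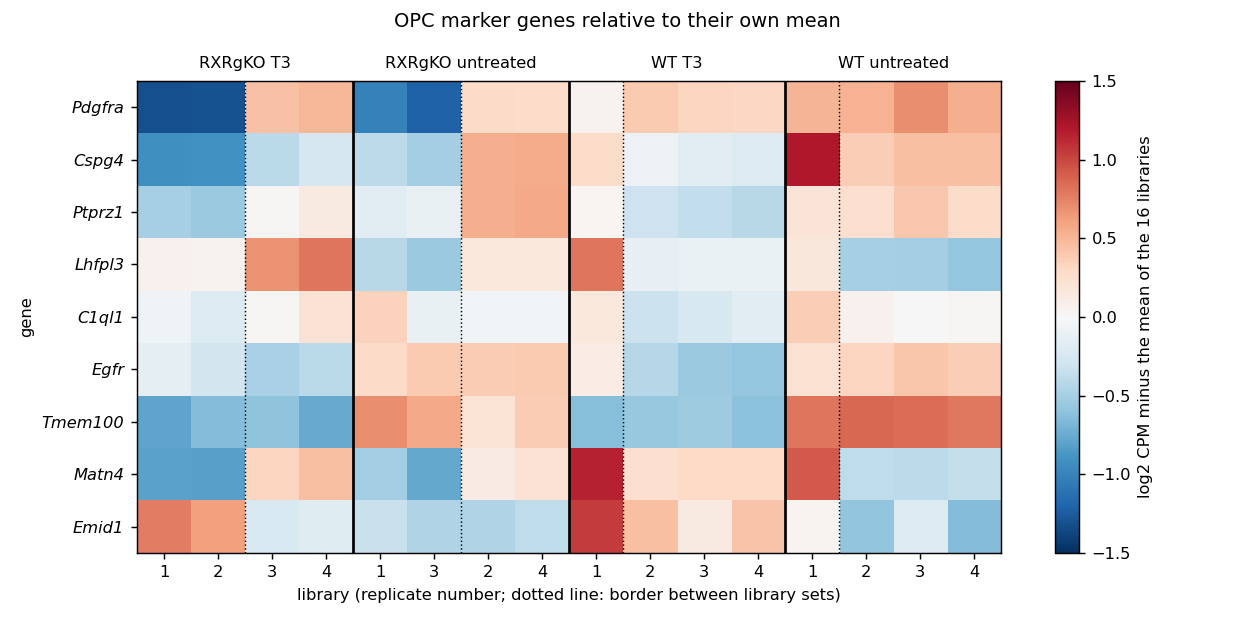
Log2 CPM of each of the 9 markers (rows) minus its own mean over the 16 libraries (colour), by library (columns, with replicate numbers). Solid lines separate groups and dotted lines library sets. Tmem100 and Egfr follow treatment. Pdgfra, Matn4, Cspg4, Ptprz1 and Lhfpl3 split by library set in the RXRgKO-labelled groups. Of these, Cspg4, Ptprz1 and Lhfpl3 also shift with treatment, in the same direction in both sets.

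Other OPC-enriched genes fell or did not pass with T3. Of 16, 0 rose and 3 fell with T3 under the RXRgKO label and 0 rose and 4 fell under the WT label, with median log2 fold changes of -0.27 and -0.39. Of all tested genes, 2.81% and 8.44% passed under these labels. Dll3, a Notch ligand, was at 44.9 ± 8.31 CPM with T3 and 91.7 ± 33.3 CPM untreated under the RXRgKO label (adjusted p = 0.012), and at 22 ± 2.28 and 61.1 ± 1.98 CPM under the WT label (adjusted p = 3.4e-04). Between labels, 3 were higher and 3 lower with T3 and 1 was higher and 3 were lower without T3, beside 14.9% and 11.3% of all tested genes. Sema5a, a semaphorin, was at 143.5 ± 67.8 CPM in RXRgKO-labelled and 339.7 ± 73 CPM in WT-labelled T3 libraries, and at 77.7 ± 15.7 and 281.6 ± 115.4 CPM in untreated ones. Of 8 lineage transcription factors, Sox5 fell under both labels, by 0.56 on the log2 scale (adjusted p = 0.0339) under the RXRgKO and 0.54 (adjusted p = 0.0186) under the WT label. None of the 8 passed between labels, with or without T3.

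Of the ligands and partners of the markers, 17 of 18 were tested. With T3, 0 passed under the RXRgKO label and 1 fell under the WT label, near the 2.81% and 8.44% of all tested genes. Between labels 4 were higher and 0 lower with T3 and 4 were higher and 1 lower without T3, beside 14.9% and 11.3% of all tested genes. Among them were Pdgfb, a ligand of both PDGF receptors, at 3.43 ± 0.495 CPM in RXRgKO-labelled and 0.575 ± 0.216 CPM in WT-labelled T3 libraries (log2 fold change 2.59, adjusted p = 1.4e-05), and Pdgfd at 11.5 ± 5.85 and 3.23 ± 0.773 CPM. Pdgfa, which makes the main OPC ligand PDGF-AA, was at 36.3 to 102.5 CPM in RXRgKO-labelled and 39.9 to 154.5 CPM in WT-labelled T3 libraries and was not called. Of 14 genes of receptor tyrosine kinase and ERK output, 0 passed with T3 under the RXRgKO label and 1, Phlda1, rose under the WT label (33.9 ± 8.75 CPM with T3, 15 ± 6.16 CPM untreated, adjusted p = 0.0114). The shares of all tested genes were 2.81% and 8.44%. Between labels 3 were higher and 1 lower with T3 and 0 were higher and 1 lower without T3, beside 14.9% and 11.3%. Phlda1 was the lower gene in both treatments (-1.60 with T3 and -1.18 without).

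Of the relatives of the markers, 15 of 16 were tested. Between labels, 2 were higher and 1 lower with T3, beside 14.9% of all tested genes in either direction, and 3 were higher and 1 lower without T3, beside 11.3%. Erbb3, a receptor of the Egfr family that binds neuregulins, was at 2.82 ± 0.767 CPM in RXRgKO-labelled and 21.9 ± 4.92 CPM in WT-labelled T3 libraries (log2 fold change -2.94, adjusted p = 1.1e-06). Col26a1, the relative of Emid1, was at 12.1 ± 0.962 and 3.17 ± 0.724 CPM in the same groups (1.92, adjusted p = 6.8e-07). With T3, 3 relatives rose and 1 fell under the WT label, and 0 passed under the RXRgKO label, beside 8.44% and 2.81% of all tested genes.

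Genes of later stages and of other cells changed beside the markers. Of all tested genes, 2.81% and 8.44% passed with T3 under the RXRgKO and WT labels, and 14.9% and 11.3% between labels with and without T3. Of 12 myelin genes, 7 rose and 0 fell with T3 under each label, with medians of 1.55 and 0.96 on the log2 scale under the RXRgKO and WT labels. Between labels, 0 were higher and 10 lower with T3 and 0 were higher and 11 lower without T3. Mbp, the myelin basic protein gene, was at 626.5 ± 276.4 CPM in RXRgKO-labelled and 9596.3 ± 1338.9 CPM in WT-labelled T3 libraries. Of 10 genes of committed oligodendrocyte precursors, 3 rose with T3 under the RXRgKO label and 1 under the WT label, and 3 and 4 were lower in the RXRgKO-labelled libraries with and without T3. All 4 genes chosen as a check of the T3 response rose under both labels, with medians of 2.73 and 2.08.

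Fibroblasts also express Pdgfra. All 6 fibroblast genes were higher in RXRgKO-labelled libraries, with and without T3. Of all tested genes, 14.9% with T3 and 11.3% without T3 were called between labels in either direction. The fibroblast genes summed to 136.4 to 159 CPM in RXRgKO-labelled and 13.9 to 32.3 CPM in WT-labelled T3 libraries, and to 174.4 to 250 and 12 to 37.3 CPM without T3. Of 7 microglial genes 6 were higher, summing to 4.11 to 16.8 CPM and 1.99 to 2.86 CPM with T3. Of 5 tested of 7 endothelial genes 3 were higher in each treatment, and they summed to 21.6 to 33.5 and 8.82 to 11.3 CPM with T3. Pericyte genes had 1 of 8 higher in each treatment, near the shares of all tested genes. They summed to 68.6 to 139.8 CPM in RXRgKO-labelled and 90.5 to 108.2 CPM in WT-labelled T3 libraries. Neuronal genes had 4 of 8 higher with T3 and 2 without, and neural stem cell genes 4 of 10 and 3 of 10. Between T3 and untreated libraries under the WT label, 0 neuronal genes rose and 2 fell, and 0 neural stem cell genes rose and 3 fell. Neither list had a gene called with T3 under the RXRgKO label. Of all tested genes, 8.44% and 2.81% passed with T3 under the WT and RXRgKO labels. Astrocyte genes had 0 of 10 called between labels or with T3. The part of these other cells in the marker values was not tested.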

How the data were processed

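Each of the 16 deposited files holds raw counts for 1 library by Ensembl gene. Per the labels' protocols, libraries were poly-A selected and stranded. The submitters' processing notes name HTSeq 0.6.1p1, STAR 2.5.3a, bcl2fastq 2.17.1.14 and the mm10 build. Annotation and strand setting: not given in the sources used here. All 5 HTSeq summary lines stayed out of library sizes and tests. By these lines 22.39% to 46.75% of reads lay in genes, 39.65% to 55.01% at several sites and 11.55% to 23.54% in no feature. The share in genes split by library set. WT-labelled replicate 1 had 46.75% with T3 and 41% untreated, while no other WT-labelled library exceeded 32.91%. The Xist-lacking libraries had at most 29.49%, and the RXRgKO-labelled libraries with Xist at least 33.08%. Whether this split bears on the marker values was not tested. Symbols, positions and exon lengths came from GENCODE M21 (GRCm38), which held 55154 of the 55335 identifiers.

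All 16 libraries entered 1 edgeR 4.0.16 quasi-likelihood fit (R 4.3.3) with a mean per group, TMM factors, robust dispersions and filterByExpr by group. A gene was called at a p under 0.05 after Benjamini-Hochberg adjustment over the 19764 genes tested. SE is the absolute log2 fold change over the square root of F. CPM are TMM-normalised, and log2 CPM, in the heatmap and the values within sets, used a prior count of 2. Libraries of a group formed a set where the chi-square per gene was under 3 (genes with summed counts of at least 20 and under 500). Sets were matched between the treatments of a label by the sign of a correlation over genes. It set the log2 CPM difference between sets with T3 against that untreated (0.79 under the RXRgKO and 0.648 under the WT label). Reads have no molecular identifiers, so they are not independent molecules.

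Same-number residual correlations for T3 under the WT label were 0.648, 0.247, 0.211 and 0.164. All were above 0.1, and the numbers were taken as pairs there in an alternative fit only. Replicates 2 to 4 each correlated best with another number. Replicate 1 stood apart in both treatments, which by itself pushes the values of replicates 2 to 4 upwards, so they cannot show pairing. Under the RXRgKO label the same-number correlations were 0.543, -0.629, -0.697 and 0.6, and between labels their signs varied. Replicate blocks there were also run as alternatives only.

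Alternatives were DESeq2 1.42.0, limma voom 3.58.1, DESeq2 size factors, other count filters, non-robust dispersions, only the groups compared, replicate blocks, library set as a term, and leaving out each library or WT-labelled replicate 1. Leaving out either RXRgKO-labelled set was chosen after seeing the data. The named genes were the 9 markers, Rxrg and up to 3 genes of each of 15 other lists by smallest adjusted p. Sox10, Pdgfa, Ddx3y and Xist were named after their values were seen. The rule also gave genes correlated with each marker, which are not reported because the libraries fall into sets. The members and lists were chosen with earlier results of these data known.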

Additional observations from a re-analysis of the deposited data

Results flagged for a closer look

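In groups of 4 libraries, 8 of the 36 sets of values (9 markers in 4 groups) had a library far from the other 3, by the gap to its nearest neighbour divided by the whole range. Chance gives about 1 such set in 20 only where the 4 libraries are alike and independent. Here the libraries fall into sets, with WT-labelled replicate 1 apart from 3 near-alike libraries. The 8 therefore cannot be read against that rate. Of the 8, 6 came from WT-labelled replicate 1. With T3, it was the highest library for Lhfpl3 (441.8 CPM) and Matn4 (194 CPM). Untreated, it was the highest for Cspg4 (122.6 CPM), Lhfpl3 (285.7 CPM), C1ql1 (66.6 CPM) and Matn4 (164.5 CPM). The other 2 came from untreated RXRgKO-labelled replicate 1, which was the highest for C1ql1 (65.8 CPM) and the lowest for Egfr (118.1 CPM).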

How the results depend on the processing

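Of 531 values recomputed under alternatives that did not leave out 1 library, 460 kept their direction and side of the threshold (counts within 1.5 times), and 32 changed sign, none of which passed the test in the fit reported. For T3 under the RXRgKO label, the count of markers called was 6 with library set as a term and 1 with no filter on low counts, with a replicate block in the 8 libraries or with only the Xist-lacking set. Under the WT label it was 9 with the replicate block in the 8 libraries or the set term, and 5 when 1 RXRgKO-labelled set, whichever it was, was left out. Between labels without T3 it was 0 with no filter, with a filter of 1 CPM in 4 libraries or with only the groups compared, and 2 with only the Xist-lacking set. With T3 it was 1 with only the set with Xist and 3 with only the Xist-lacking set, and for the response difference it was 1 with the set term. A replicate block in all 16 libraries lost Tmem100 between labels without T3 (-0.36, adjusted p = 0.0675), and the block in the RXRgKO-labelled libraries lost Egfr (-0.69, adjusted p = 0.123). These blocks changed no other call. The set term could not be fitted between labels, since sets are nested in the label.

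Without 1 library, the count was 1 to 2 for T3 under the RXRgKO label and 0 to 1 between labels without T3. Log2 values that changed sign without 1 library ranged, for T3 under the RXRgKO label, from -0.24 to 0.33 (Pdgfra), -0.14 to 0.05 (C1ql1) and -0.17 to 0.26 (Matn4). Between labels without T3 they ranged from -0.15 to 0.10 (Ptprz1), -0.18 to 0.03 (C1ql1), -0.41 to 0.22 (Matn4) and -0.17 to 0.08 (Emid1), and with T3 from -0.06 to 0.17 (Ptprz1) and -0.06 to 0.20 (Egfr). For the response difference they ranged from -0.29 to 0.14 (Cspg4), -0.05 to 0.21 (Ptprz1), -0.17 to 0.35 (Lhfpl3), -0.09 to 0.17 (Egfr) and -0.38 to 0.03 (Emid1).

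Other sign changes were these. For T3 under the RXRgKO label, Pdgfra had -0.03 by limma voom, -0.01 with the block in the 8 libraries or the set term and -0.20 with only the Xist-lacking set, Matn4 had -0.16 there, and C1ql1 had 0.16 with only the set with Xist. Between labels without T3, the set with Xist gave 0.27 (Ptprz1) and 0.11 (Matn4), the Xist-lacking set -0.14 (Lhfpl3) and 0.03 (C1ql1), leaving out WT-labelled replicate 1 gave 0.02 (C1ql1), 0.20 (Matn4), 0.07 (Emid1) and -0.01 (Egfr), and Egfr also had -0.01 with no filter and with only the groups compared. With T3, the set with Xist gave 0.15 (Pdgfra) and -0.15 (Egfr), and the Xist-lacking set -0.26 (Ptprz1), -0.11 (Lhfpl3) and 0.15 (Emid1). Egfr also had -0.01 with DESeq2 or its size factors, -0.05 with no filter and -0.02 with only the groups compared. For the response difference, the Xist-lacking set gave 0.21 (Cspg4), -0.03 (C1ql1), 0.12 (Egfr) and 0.20 (Emid1), and Egfr had 0.01 by limma voom, 0.00 with the set term and 0.20 without WT-labelled replicate 1. The cause of these changes was not tested. Emid1 rested on the fewest counts, 39 to 175 a library.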
